A study of Mus musculus with 16 samples.

Results

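The Hox genes encode homeobox transcription factors that give cells along the body axis their positional identity, and they are read here in cultured precancerous cells of small cell lung cancer with and without added Wnt5a. Every gene symbol made of Hox, a cluster letter and a paralog number was taken, which gave 13 of the 17655 genes listed. The 13 are Hoxb1 to Hoxb9 and Hoxb13 of the Hoxb cluster, Hoxc6 and Hoxc9 of the Hoxc cluster, and Hoxd11 of the Hoxd cluster. Of the 39 mouse Hox genes of this form in the RefSeq annotation, 26 are not listed in the tables used here, and all 11 Hoxa genes are among them. Each listed gene had a read in at least 1 sample: 0 listed genes had no read in all 16 samples.

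The cells, called preSC, are Chga-positive mouse lung neuroendocrine cells that are Rb1 null, Trp53 null and heterozygous for an Rbl2 null allele. They carried either a lentiviral empty control (called empty) or lentiviral-Wnt5a (called Wnt5a), and doxycycline (1 µg/mL, 48 hours) was given to both groups ahead of RNA extraction. The labels name neither the promoter that drives Wnt5a nor the number of clones. Wnt5a is a secreted ligand of non-canonical Wnt signalling. The 8 deposited samples of a group differed within samples 1 to 4 and within samples 5 to 8 by no more than sampling noise, so each set of 4 was averaged and counted as 1 library, A and B, giving n = 2 libraries per group. The labels do not say whether the libraries came from separate cultures, so that a p-value measures only the spread between these libraries, which may be technical.

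In mammals the Hox genes stand in 4 clusters, and within a cluster the genes with low paralog numbers are used from the hindbrain backwards while those with high numbers are used nearer the tail. Hox proteins bind DNA together with cofactors of the TALE homeobox class, the Pbx, Meis and Pknox proteins. Polycomb complexes keep unused Hox genes silent, Trithorax and MLL complexes keep used ones active, and retinoic acid induces the low-numbered end of a cluster. In the lung, paralog group 5 is best known, since Hoxa5 and Hoxb5 take part in the branching of the airways.

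Of the Hoxb genes, the 250 bases upstream of the start site in RefSeq (GRCm38.p6) were given for a silent gene, a gene that is on and a gene at a low level, and these 3 are shown as the sequence just before genes of 1 cluster whose levels lay far apart. They read 5′ to 3′ on the plus strand, at chr11:96365508-96365757 for Hoxb1, chr11:96318017-96318266 for Hoxb4 and chr11:96281655-96281904 for Hoxb8. Capitals mark a match to TGATNNAT, a motif of Hox proteins bound with Pbx, searched on both strands.
Hoxb1: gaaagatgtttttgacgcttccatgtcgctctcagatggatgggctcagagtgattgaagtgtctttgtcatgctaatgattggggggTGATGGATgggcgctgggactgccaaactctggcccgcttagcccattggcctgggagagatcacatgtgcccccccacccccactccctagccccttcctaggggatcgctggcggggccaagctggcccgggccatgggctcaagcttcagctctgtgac
Hoxb4: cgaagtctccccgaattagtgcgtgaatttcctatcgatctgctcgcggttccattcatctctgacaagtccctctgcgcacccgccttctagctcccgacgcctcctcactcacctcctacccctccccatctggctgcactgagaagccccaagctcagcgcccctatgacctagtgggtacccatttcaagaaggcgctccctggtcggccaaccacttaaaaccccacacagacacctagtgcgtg
Hoxb8: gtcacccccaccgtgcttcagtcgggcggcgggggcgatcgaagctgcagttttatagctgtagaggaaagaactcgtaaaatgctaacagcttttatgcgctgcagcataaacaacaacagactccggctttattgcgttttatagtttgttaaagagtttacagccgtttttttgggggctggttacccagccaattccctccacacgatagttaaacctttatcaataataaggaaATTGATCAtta
The Hoxb1 window held 7 CpG sites, the Hoxb4 window 14 and the Hoxb8 window 12, against a median of 6 over 32851 mouse windows of the same length. TGATNNAT occurred once in the Hoxb1 window, starting at position -162 from the start site, and once in the Hoxb8 window, starting at position -11, against 7.68% of all windows with a match. The Hoxb4 window held no match to these letters, and it held 1 match to AGGTCA, the half-site of retinoic acid receptors, which 14.0% of all windows hold. The Hoxb8 window held 2 matches to TATAAA (12.4% of windows) and 1 to CCAAT (33.8%), and the Hoxb1 window held 2 to CCAAT. In these windows no match to one of the motifs overlapped a match to another. The CpG counts of the 3 windows had the same order as the genes' levels, Hoxb4, Hoxb8 and Hoxb1. Hoxd11, another silent gene, has 2 windows in that table, with 2 and 20 CpG sites.

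The samples were of even depth. Reads recovered from the deposited normalised values came to 7526676 to 8859862 per sample and 30220749 to 35315408 per library. Wnt5a itself measured 144 and 99.8 in the empty libraries and 1049 and 1509 in the Wnt5a libraries, in the direction of the labels (log2 difference 3.38, limma adjusted p = 0.00100). Of 12 lung neuroendocrine markers, 11 were above a mean value of 10, among them Chga, and Neurod1 had at most 3 reads in each library. Markers of leukocytes (3 of 6 listed) and endothelium (3 of 4 listed) were below a value of 10 in every library, as were 6 of the 7 listed markers of fibroblasts, with Dcn as the exception. Of other lung epithelium, Foxj1 (21.8 to 24.2) and Ager (10.9 to 14.9) were above 10 in every library. Of the neuroendocrine markers 1 was called, beside 2.06% of all genes tested. This was the granin Scg2, which was lower in Wnt5a (log2 difference -0.73, limma adjusted p = 0.0121).

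Among the listed Hox genes, those from Hoxb2 to Hoxb7 were on and the others were low or silent. The levels of the 26 genes not listed are not known from these tables, and whether any were removed before deposit is not given in the sources used here. On means here a normalised read count of at least 10 in all 4 libraries. Silent means at most 3 reads in each library, near the highest expected count that 0 observed reads allow, and low is what lies between. By this rule 6 genes were on, 2 were low (Hoxb8 and Hoxb9) and 5 were silent (Hoxb1, Hoxb13, Hoxc6, Hoxc9 and Hoxd11). All 13 together took 0.0243% to 0.0294% of the reads of a library. Hoxb2 to Hoxb5 carried 92.3% to 96.0% of the summed Hox value, a sum of normalised counts not divided by length.

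Levels of different genes were set beside each other per kilobase of the longest transcript, as the mean ± SD of the 4 libraries. Hoxb5, known for airway branching and for neural crest of the gut, stood highest at 250.3 ± 37.7 normalised counts per kilobase, above 85.2% of all genes with a length. Hoxb2, which patterns the facial nerve region of the hindbrain, came next at 200.1 ± 13.4. Hoxb4, known from blood stem cells, stood at 158 ± 18.7 and Hoxb3, its partner in hindbrain and neck patterning, at 100.04 ± 6.03. The 4 highest Hox genes were therefore the 4 consecutive genes with paralog numbers 2 to 5.

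From Hoxb5 to Hoxb9 the level was lower with each higher paralog number. Hoxb6 stood at 36.9 ± 9.89 per kilobase, Hoxb7 at 13.8 ± 4.09, Hoxb8, an oncogene of myeloid progenitors, at 5.89 ± 3.30, and Hoxb9, which shapes the ribs, at 0.522 ± 0.593. The order Hoxb5, Hoxb2, Hoxb4, Hoxb3, Hoxb6, Hoxb7, Hoxb8, Hoxb9 was the same in 4 of 4 libraries. The spreads of neighbours in that order were still close in places: Hoxb5 reached down to 217.4 per kilobase in Wnt5a library B while Hoxb2 reached up to 217.1 in Wnt5a library A, and Hoxb7 reached down to 9.62 while Hoxb8 reached up to 10.6, both across empty libraries. Dividing by the median transcript length in place of the longest put Hoxb3 (249.9) above Hoxb4 (158), so the order of those 2 depends on the transcript taken; dividing by coding length kept the whole order.

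**Figure D1:**
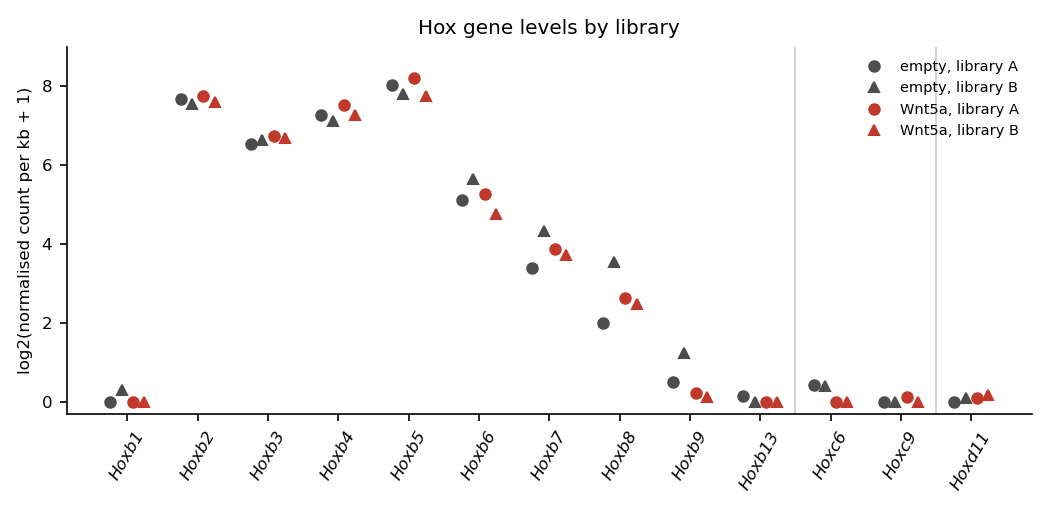
Level of each listed Hox gene in the 4 libraries, as log2 of the normalised count per kilobase of the longest transcript plus 1, with grey for empty, red for Wnt5a, circles for library A and triangles for library B, and vertical lines between the Hoxb, Hoxc and Hoxd clusters. Hoxb2 to Hoxb5 stand highest, the level steps down from Hoxb5 to Hoxb9, and Hoxb1, Hoxb13, Hoxc6, Hoxc9 and Hoxd11 lie near 0.

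The silent genes rested on a handful of reads. Hoxb1, the next gene beside Hoxb2 and a determinant of facial motor neurons, had 0 reads in empty library A, 2 in empty library B and 0 in both Wnt5a libraries. Hoxb13, at the other end of the cluster and known from the prostate and tail, had 1 read in empty library A and 0 in the others. Hoxc6, a gene of the thoracic region, had 2 reads in each empty library and 0 in each Wnt5a library, and Hoxc9, which sets thoracic motor neuron identity, had 1 read, in Wnt5a library A. Hoxd11, a gene of the forearm and kidney, had 0 and 1 reads in the empty libraries and 1 and 2 in the Wnt5a libraries. The value of 3 reads was 0.827 and 0.764 in empty libraries A and B and 0.704 and 0.703 in Wnt5a libraries A and B, so each of these 5 genes was at or under that value in every library and no fold is given. That limit covers counting error only.

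In 2 paralog groups more than 1 member is listed. In group 6, Hoxb6 was on with 219 to 384 reads per library while Hoxc6 had at most 2, which came to 36.9 and 0.168 normalised counts per kilobase. In group 9, Hoxb9 was low with 4, 14, 2 and 1 reads in empty A, empty B, Wnt5a A and Wnt5a B, and Hoxc9 had at most 1, which came to 0.522 and 0.0248 per kilobase. In the Wnt5a libraries both genes of group 9 were within the limit of 3 reads.

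Most genes flanking the Hoxc and Hoxd clusters were expressed, although only a few genes of those clusters are listed. Beside the Hoxc cluster (chromosome 15), Atf7 measured 425 to 465 in the 4 libraries, Smug1 402 to 433 and Cbx5, a heterochromatin protein, 4468 to 4937, whereas D930007P13Rik had 0 to 6 reads. Beside the Hoxd cluster (chromosome 2), Lnpk measured 556 to 588 and Mtx2 318 to 412. Around the Hoxb cluster (chromosome 11), Skap1 measured 626 to 783 and Atp5g1 778 to 982, whereas Calcoco2 and Gm11529 stayed below 7. Of the 18 flanking genes taken (the 3 nearest listed on each side of each cluster), 15 were tested between the groups. Among them 0 passed limma's adjusted threshold, beside 2.06% called over all genes tested. Ttll6, a tubulin-modifying enzyme near the Hoxb13 end, came closest among the flanking genes of the Hoxb cluster. It measured 12.7 and 18.3 in the empty libraries and 5.64 and 3.52 in the Wnt5a libraries (log2 difference -1.57, 95% interval -2.34 to -0.80, limma adjusted p = 0.0702). It reached the minimum mean value of 10 only through the empty group, where it is high, so this result is a description only.

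Strand use is not stated in the sources used here, and some Hox exons overlap other transcripts in the GENCODE annotation. Hoxb3 shares 52.9% of its exonic bases and Hoxb2 27.3% with the antisense gene Hoxb3os, which is not listed, and Hoxb5 shares 3.59% with Hoxb5os. Whether reads of these pairs were told apart is not known. The levels of Hoxb2 and Hoxb3 may therefore include antisense reads or miss reads of shared bases. Hoxb5os itself was listed at 1.93, 3.56, 1.64 and 2.11 in empty A, empty B, Wnt5a A and Wnt5a B. Hoxb4 and Hoxb6 to Hoxb9 share no exonic base with another gene there.

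The comparison of Wnt5a with empty cells asked whether added Wnt5a moved any Hox gene. None of the 7 Hox genes with a mean value of at least 10 (Hoxb2 to Hoxb8) passed limma's threshold of an adjusted p of 0.05. This fit does not pair libraries of like letter, and in it 0 of the 7 had an unadjusted p under 0.05. Over all 12357 genes tested, 254 were called (2.06%), 171 of them higher in Wnt5a (1.38%) and 83 lower (0.672%), and 16.1% had an unadjusted p under 0.05. edgeR's quasi-likelihood test on the recovered reads called 1.99% of genes and DESeq2 called 4.35%, and each called 0 Hox genes. The count over all genes moved with single libraries, to 493 without empty library A, 1098 without empty library B, 166 without Wnt5a library A and 138 without Wnt5a library B. Of the 7 Hox genes, 4 had a positive and 3 a negative log2 difference, with a median of 0.07 against 0.00 over all genes tested. With libraries paired by letter as a block, limma called 2095 genes and again 0 Hox genes. Among the Hox genes Hoxb4 had the lowest limma adjusted p in that fit, 0.0594.

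At the low-numbered end, Hoxb2 to Hoxb5 had log2 differences of 0.07 to 0.20 and none passed the test. In bulk RNA of this kind, fewer cells using a gene and less of its RNA per cell cannot be told apart. Hoxb2 measured 639 and 584 in empty libraries A and B and 680.3 and 606 in the Wnt5a libraries. Over the 8 samples the lowest, median and highest were 559.7, 613 and 663 in empty and 577, 637 and 723 in Wnt5a. The groups overlapped, with library A above library B in both, and the log2 difference was 0.07 (95% interval -0.15 to 0.29, limma adjusted p = 0.798).

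Hoxb3 measured 294 and 315 in the empty libraries and 339 and 329 in the Wnt5a libraries. This was the one tested Hox gene whose libraries did not overlap between groups, a state that 44.2% of all genes tested share. The samples overlapped, from 288 to 327 (median 307) in empty and from 304 to 350.2 (median 338) in Wnt5a, and the log2 difference was 0.13 (-0.07 to 0.34, limma adjusted p = 0.551).

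Hoxb4 measured 397 and 356 in the empty libraries and 471 and 395 in the Wnt5a libraries. Both Wnt5a libraries stood above the empty library of the same letter, by 0.25 for A and 0.15 for B on the log2 scale, and empty A still stood above Wnt5a B. The log2 difference of 0.20 (-0.07 to 0.47, limma adjusted p = 0.469) had the smallest unadjusted p of the Hox genes, 0.121.

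Hoxb5 measured 735 and 620.4 in the empty libraries and 829 and 606 in the Wnt5a libraries. Its samples ran from 595 to 776 (median 678) in empty and from 563 to 874 (median 724) in Wnt5a, so that the Wnt5a group held both the highest and the lowest sample. The mean was 677 ± 80.8 in empty and 717 ± 158 in Wnt5a (SD, n = 2), a log2 difference of 0.07 (-0.31 to 0.45, limma adjusted p = 0.901). The spread between libraries A and B was thus larger than the difference between the groups.

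**Figure D2:**
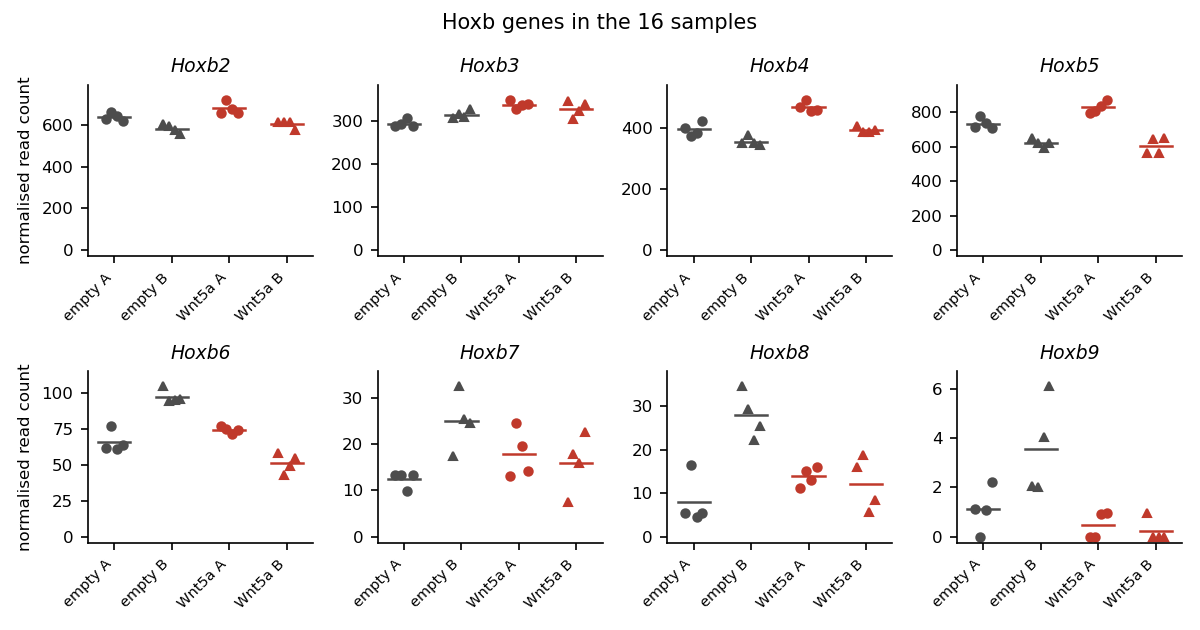
Normalised read count of Hoxb2 to Hoxb9 in each of the 16 samples, grouped by library, with grey for empty, red for Wnt5a and a line at each library's mean; each panel has its own linear scale. For Hoxb6 to Hoxb9 empty library B has the highest mean, with a mean of 28.02 for Hoxb8 against 8.01 to 13.9 in the other libraries.

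The genes are on chromosome 11, where the other genes tested were shifted as a whole. The median log2 difference of the 1013 other tested chromosome 11 genes was 0.17 (quartiles 0.04 and 0.28), at 0.18 for the A libraries and 0.17 for the B libraries, against 0.00 on both chromosome 15 (485 genes) and chromosome 2 (966 genes). Set against their chromosome's median, the differences of Hoxb2, Hoxb3 and Hoxb5 turned negative, to -0.10, -0.04 and -0.10, and that of Hoxb4 came to 0.03. The positive differences of Hoxb2 to Hoxb5 all lay between the quartiles of the other chromosome 11 genes, and the part of that shift in them was not tested.

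At the high-numbered end, Hoxb6 to Hoxb8 had negative differences, none passed the test, and the empty libraries lay further apart than for Hoxb2 to Hoxb5. Hoxb6, a gene of the thoracic region and limb, measured 66.2 and 97.8 in the empty libraries and 74.7 and 51.4 in the Wnt5a libraries. Its 8 samples ran from 61.4 to 105 (median 86.0) in empty and from 43.0 to 77.0 (median 65.1) in Wnt5a. Empty library B was the high set and Wnt5a library B the low set, with both A libraries between them, and the log2 difference was -0.37 (95% interval -0.95 to 0.21, limma adjusted p = 0.549).

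Hoxb7, a gene active in kidney ducts and raised in several tumour types, measured 12.4 and 24.9 in the empty libraries and 17.8 and 15.9 in the Wnt5a libraries, from 45, 98, 76 and 68 reads. Both Wnt5a libraries lay between the empty ones, and the log2 difference was -0.06 (-0.85 to 0.72, limma adjusted p = 0.957). This interval allows a change of either sign.

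Hoxb8 measured 8.01 and 28.02 in the empty libraries and 13.9 and 12.2 in the Wnt5a libraries, from 29, 110, 59 and 52 reads. Its samples ran from 4.39 to 34.7 (median 19.5) in empty and from 5.60 to 18.7 (median 14.1) in Wnt5a, with the 4 samples of empty library B above every other sample. The log2 difference was -0.21 (-1.42 to 1.01, limma adjusted p = 0.908). It came to -1.05 without empty library A and turned to 0.64 without empty library B, so its sign depended on which empty library was kept.

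Hoxb9 was too low to be tested, at 1.102 and 3.57 in the empty libraries and 0.469 and 0.235 in the Wnt5a libraries. Both Wnt5a libraries lay below both empty ones, with 2 and 1 reads in Wnt5a A and B against 4 and 14 in empty A and B. Among the genes tested, 44.2% had libraries that did not overlap between groups. Hoxb1, Hoxb13 and Hoxc6 had reads in the empty libraries alone, at most 2 in a library, and Hoxc9 had 1 read, in Wnt5a library A. Such counts are within the 3 reads set here for silent, which does not show that a gene is absent.

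By the labels, libraries of like letter share only sample numbers. Over all genes tested, the deviations of such pairs from their group means did correlate (Pearson 0.44, Spearman 0.53). Set as such pairs, the 7 tested genes all had a positive Wnt5a minus empty difference for the A libraries. For the B libraries 3 of 7 had one. The medians of the other tested chromosome 11 genes were positive too, at 0.18 for A and 0.17 for B. The share of all genes with such signs was not counted. For Hoxb6 the differences were 0.17 for A and -0.92 for B on the log2 scale, for Hoxb7 0.49 and -0.62, and for Hoxb8 0.72 and -1.14. The low-numbered genes kept closer together, at 0.09 and 0.05 for Hoxb2 and 0.17 and -0.03 for Hoxb5. The sign turned between the pairs for Hoxb5 too, and the larger turns were at Hoxb6, Hoxb7 and Hoxb8. For Hoxb7 and Hoxb8 both Wnt5a libraries lay between the empty ones.

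Within the empty group the ratio of library B to library A was near or below 1 from Hoxb2 to Hoxb5 and above 1 from Hoxb6 to Hoxb9, as a description of 2 libraries. It was 0.914 for Hoxb2, 1.07 for Hoxb3, 0.899 for Hoxb4 and 0.844 for Hoxb5. It was 1.48 for Hoxb6 (95% exact counting interval 1.25 to 1.74), 2.01 for Hoxb7 (1.40 to 2.93), 3.50 for Hoxb8 (2.31 to 5.47) and 3.23 for Hoxb9 (1.02 to 13.5). Within the Wnt5a group it was 0.687 for Hoxb6 (0.576 to 0.819), 0.893 for Hoxb7 (0.634 to 1.26) and 0.880 for Hoxb8 (0.594 to 1.30), with no gene from Hoxb2 to Hoxb9 above 1. The intervals cover counting error only, and with 1 library in each cell of this layout the difference between the groups in this ratio could not be tested.

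**Figure D3:**
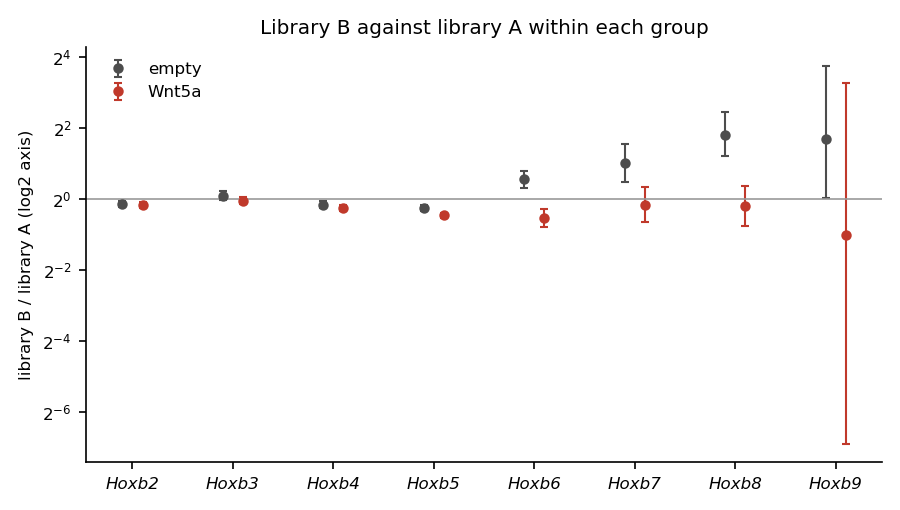
Ratio of library B to library A for Hoxb2 to Hoxb9 in the empty (grey) and Wnt5a (red) groups on a log2 axis, with 95% exact counting intervals. In the empty group the ratio climbs from 0.844 at Hoxb5 to 3.50 at Hoxb8, while in the Wnt5a group it stays at or below 0.971.

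Summed over Hoxb6 to Hoxb9 the value was 87.7 in empty A, 154 in empty B, 107 in Wnt5a A and 79.7 in Wnt5a B. Summed over Hoxb2 to Hoxb5 it was 2064 and 1876 in the empty libraries and 2319 and 1935 in the Wnt5a libraries. Empty library B was therefore the highest for the sum of the high-numbered genes and the lowest for the sum of the low-numbered ones. The 7 listed fibroblast markers summed to 604, 357, 246 and 250 in empty A, empty B, Wnt5a A and Wnt5a B, highest in empty A, and Dcn held nearly all of that sum. The other 6 summed to 7.72, 16.5, 5.17 and 4.22, highest in empty B, with Pdgfra at 4.69, 9.41, 2.82 and 1.18 and Col1a1, Col1a2 and Col3a1 under 4 in each library. Their part in the Hoxb6 to Hoxb9 levels was not tested.

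The cofactors of Hox proteins were read as a list of 9 TALE genes, all of them tested. Meis1, a partner of Hox proteins that is known from leukaemia, was higher in Wnt5a cells. It was the 1 gene of the 9 that passed limma's threshold, while 0 fell, beside 2.06% called over all genes tested. It reached the minimum mean value of 10 only through the Wnt5a group, where it is high, so among tested genes it had to differ. It was nearly silent in empty cells, at 0.276 and 0.508 in libraries A and B, and measured 23.0 and 18.3 in Wnt5a cells. The samples did not overlap, with a highest value of 2.03 in empty and a lowest of 13.2 in Wnt5a.

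Counted in reads, Meis1 had 3 in the empty libraries together and 176 in the Wnt5a libraries together, a ratio of 52.0 after scaling (95% exact counting interval 17.5 to 254, counting error only). On the log2(value + 1) scale the difference was 3.96, a size that depends on the added 1. Its limma result (95% interval 3.17 to 4.74, adjusted p = 0.00248) is a description only, since the filter took Meis1 in through its high group. The difference was between 3.80 and 4.11 with any 1 library left out. The nearest genes on either side of it among those tested, both on chromosome 11, did not pass the test: Etaa1 measured 328, 288, 358 and 319, and Spred2 275, 242, 276 and 225, in empty A, empty B, Wnt5a A and Wnt5a B.

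The other 8 TALE genes did not pass the test. Meis2 measured 5851 and 6014 in the empty libraries and 5566 and 6400.0 in the Wnt5a libraries, with a log2 difference of 0.01. The median of the 9 was -0.01, beside 0.00 over all genes tested.

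**Figure D4:**
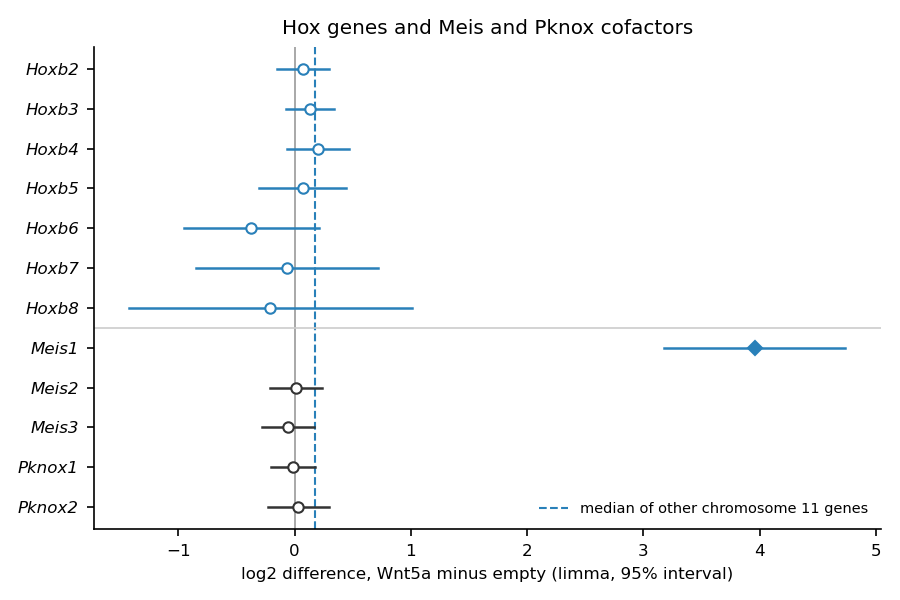
Log2 difference (Wnt5a minus empty) with its 95% interval from limma for the 7 tested Hox genes and the TALE cofactors of the Meis and Pknox families, in blue for genes on chromosome 11, with the dashed line at the median of the other chromosome 11 genes, 0.17, and a filled diamond for a gene past the threshold. Every Hox interval includes 0. Meis1 stands alone at 3.96 and reached the minimum mean value only through the Wnt5a group.

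None of the Polycomb subunits, which hold Hox clusters silent, and none of the Trithorax and MLL subunits, which hold them active, passed the test. All 27 Polycomb subunits of the list were tested, 0 passed limma's adjusted threshold in either direction, and 5 had an unadjusted p under 0.05, beside 2.06% called and 16.1% under that p over all genes tested. Rbbp4, a histone-binding subunit of the Polycomb complex that methylates histones, measured 6049, 6476, 5929 and 6480.0 in empty A, empty B, Wnt5a A and Wnt5a B, and Cbx6, which reads that mark, measured 3633, 3494, 3292 and 3097. The median of the list was 0.05 on the log2 scale. It came to -0.01 with chromosome medians removed.

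All 16 Trithorax and MLL subunits were tested and 0 passed in either direction, with 4 under an unadjusted p of 0.05, beside the same 2.06% and 16.1% over all genes, and a median of -0.04. Psip1, which tethers MLL complexes to chromatin, measured 6186, 6456, 6479.7 and 6020.03 in the same order. Kmt2a, the MLL histone methyltransferase itself, measured 3351, 2845, 2864 and 2399, with empty A highest and Wnt5a B lowest (log2 difference -0.24, limma adjusted p = 0.405).

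Of 18 genes of retinoic acid signalling, 17 were listed and 13 tested, and 0 passed in either direction, with 1 under an unadjusted p of 0.05, again beside 2.06% and 16.1%. Aldh1a3 and Aldh1a1, enzymes that make retinoic acid, had the highest mean values of the list, at 1444, 1465, 1264 and 1177 for Aldh1a3 and 806, 949, 814 and 909 for Aldh1a1 in the same order. The median of the 13 was -0.06.

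Nkx2-1, the lung lineage factor, named after its values were seen, measured 2774, 2719, 3159 and 2877 in empty A, empty B, Wnt5a A and Wnt5a B. Of a list of 23 genes of noncoding RNAs, microRNAs and homeobox or other genes within or at the edge of the Hox clusters, such as Hotair and Evx1, 1 is listed, the antisense gene Hoxb5os.

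**Figure D5:**
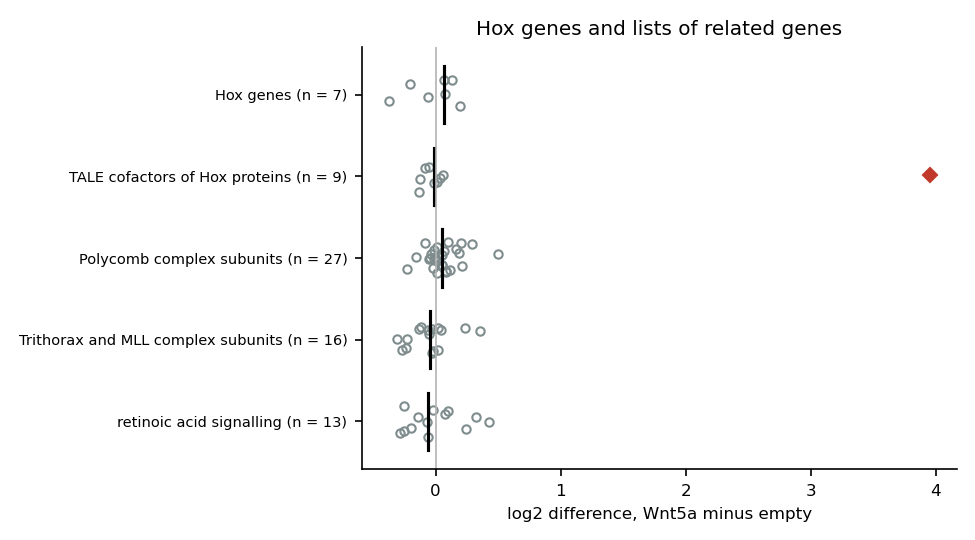
Log2 difference (Wnt5a minus empty) of each tested gene among the Hox genes, the TALE cofactors and the Polycomb, Trithorax and MLL, and retinoic acid lists, with the median of each as a black bar and a red diamond for a gene past limma's adjusted threshold. The medians lie between -0.06 and 0.07. The 1 diamond is Meis1, which reached the minimum mean value only through the Wnt5a group.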

How the data were processed

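RNA was measured by sequencing in 8 samples of each group. Per the submitters' processing notes, TopHat, Bowtie, HTSeq and DESeq2 were used. Their versions and roles, the genome build and strand use are not given in the sources used here. The deposited signal is a normalised value per gene; all values were whole multiples of 1 step per sample (tolerance 0.01 read), so reads were recovered by division. Recovered reads of samples within a library gave dispersion indices of 0.987 to 1.05 (24 pairs), and of other pairs of a group 5.23 to 5.44 (32 pairs), counting genes that averaged 10 reads or more. Values were averaged per library.

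Genes with a mean value of at least 10 were tested with limma 3.58.1 (R 4.3.3; trend), after adding a pseudocount of 1 to the values and taking log2. P-values were adjusted by Benjamini-Hochberg across every gene in the fit (threshold 0.05). This scale understates changes of low genes. edgeR 4.0.16 and DESeq2 1.42.0 on recovered reads were alternatives, with other filters, scalings, left-out libraries, all 16 samples and a block. The fits were also run on simulated counts with independent libraries and no chromosome shift, unlike these data, and no result here rests on that.

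The members and lists were chosen with earlier results of these data known. Named were all Hox genes, flanking genes, Wnt5a and, of each list, up to 4 genes past the threshold, otherwise the 2 with the highest mean. RefSeq (GRCm38.p6) matched 17620 of 17655 symbols, 379 by synonym, and promoter windows were given for Hoxb1, Hoxb4, Hoxb8 and Hoxd11 among the members. Some results on genes other than Hox genes are not reported here. Transcript lengths are from GENCODE M21.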

Additional observations from a re-analysis of the deposited data

How the results depend on the processing

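The Hox genes kept 0 calls in limma without a filter, without trend, with chromosome medians removed, and in edgeR and DESeq2. A minimum value of 50 also gave 0 Hox calls, with Hoxb7 and Hoxb8 left out of that fit as too low. With all 16 samples as replicates, 3 were called (Hoxb3, Hoxb4, Hoxb6), and 4 with the replicate block added (also Hoxb2). Those fits count samples of 1 library as replicates. Leaving out each library gave 0 to 1 Hox calls; the lone library left is assumed to vary like the other group. Removing chromosome medians reversed Hoxb2 (-0.101), Hoxb3 (-0.0405) and Hoxb5 (-0.102). Left-out libraries gave log2 differences of -0.0121 to 0.155 for Hoxb2, -0.156 to 0.296 for Hoxb5, -0.538 to 0.414 for Hoxb7, -1.05 to 0.636 for Hoxb8, -0.0782 to 0.0501 for Rbbp4, -0.0700 to 0.0362 for Psip1 and -0.141 to 0.0946 for Aldh1a1, each reversing in places. They gave 0.0719 to 0.325 for Hoxb4, -0.650 to -0.0943 for Hoxb6 and -0.364 to -0.108 for Kmt2a. The cause was not tested.

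Genes called over all genes were 254, and 146 without a filter, 102 at a minimum value of 50, 158 without trend, 4377 with all 16 samples, 6012 with all 16 samples and the replicate block, 538 with DESeq2, and 138 to 1098 with 1 library left out. With the replicate block on libraries the count was 2095, with 0 Hox genes (Hoxb4 adjusted p = 0.0594) and with Kmt2a (0.0117), Cbx6 (0.0451) and Aldh1a3 (0.0155), which the fit without it did not call. Both groups use the same sample numbers, and by the labels the samples share only a number. Deviations from the group means still correlated across 12357 genes (Pearson 0.44, Spearman 0.53). Genes are not independent replicates.

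The 6 genes that are on became 5 to 7 with other limits, and the 5 silent genes became 0 when 0 reads were required in each library. With 2 libraries per group, the intervals of Hoxb6 to Hoxb8 are too wide to show moderate changes.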

Other observations

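In 4 of the 17 listed retinoic acid genes the Wnt5a libraries lay far apart; these were chosen after their values were seen, and other genes of the list had other orders. Rarb, Dhrs3 and Stra6 did not pass limma's threshold between the groups (adjusted p = 0.837, 0.954 and 0.954), and Cyp26b1 was too low to be tested. Rarb, a retinoic acid receptor that is itself induced by retinoic acid, measured 169, 167, 317 and 125 in empty A, empty B, Wnt5a A and Wnt5a B. Dhrs3, which turns retinaldehyde back to retinol, measured 175, 110, 259 and 85.1. Stra6, the retinol transporter, measured 96.0, 68.0, 113 and 52.0, and Cyp26b1, which degrades retinoic acid, measured 1.38, 5.09, 27.2 and 0.939. Wnt5a library A was the highest and Wnt5a library B the lowest for all 4. Wnt5a library A was also the highest for Hoxb2, Hoxb3, Hoxb4 and Hoxb5, of which only Hoxb5 was lowest in Wnt5a library B. The share of all genes with such orders was not counted, and a link of these genes to the Hox genes was not tested.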
